A study of Brassica rapa subsp. pekinensis with 6 samples.

Results

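Among the genes that buds of the male sterile Chinese cabbage mutant msm had largely lost, 61 stood in 19 runs of consecutive gene identifiers, and these runs are described here. A gene was marked when its mean level in the wild type FT was at least 1 RPKM (reads per kilobase of gene length and per 1000000 reads) and its mean level in msm was at most 0.25 of that. A marked gene was kept when at least 3 marked genes followed each other with Bra numbers that differ by exactly 1. Of 35421 genes with a read in any library, 1998 (5.64%) were marked, and the 61 members were 3.05% of those. The msm and wild-type means chose the members, so the members were selected on the contrast itself, and their loss in msm is a description with no test.

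The samples were developing flower buds of Brassica rapa subsp. pekinensis, taken from plants in full bloom: 3 RNA-seq libraries of the mutant msm (numbered 1, 2 and 3) and 3 of its wild type, the line FT (1, 2 and 4). The labels give neither the mutated locus nor how the mutant arose, and leave unsaid if the libraries are separate plants. The spread between them may therefore be technical. The deposited tables hold 25000000 to 26200000 uniquely assigned reads per msm library and 25000000 to 25400000 per wild-type library, rounded to the nearest 100000. In whole buds, fewer cells of a type and less RNA per cell cannot be told apart. The files give identifiers without gene names, and none of the 61 identifiers matched the RefSeq gene table used, so neither the function of the members nor the tissue of the samples could be checked against known genes. Protein and promoter sequences of the members were not used here.

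Flower buds hold the anthers, in which the tapetum, the innermost layer of the anther wall, feeds the developing pollen and delivers the material of its coat. Genes of the tapetum and of pollen can be very active within a short window and silent elsewhere, and plants that form no working pollen often lack their transcripts. Genes that lie next to each other in a plant genome can be tandem copies of one ancestor, and neighbours can also share open or closed chromatin. Annotation projects usually number genes along the assembled sequence, so consecutive numbers commonly mean neighbours. Genome positions were not analysed here, and below "neighbour" refers to the number alone.

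Runs of lowered genes were short. One run held 5 genes, 2 runs held 4 and 16 runs held 3. A further 131 runs held exactly 2 marked genes, and 1675 marked genes had no marked neighbour. When a marked gene was followed by a listed number, that next gene was marked in 173 of 1745 cases (9.91%). After an unmarked gene it was marked in 1580 of 29399 cases (5.37%). Both shares rest on the same group means, and they were not set against each other in a test. Turning the rule round, with msm at 1 RPKM or more and wild type at most 0.25 of it, marked 476 genes (1.34%). These raised genes gave 14 runs of 2 and no run of 3. The number after a raised gene was raised in 14 of 410 cases (3.41%), and after a gene that was not raised in 404 of 30734 cases (1.31%), which was not tested either. Nothing particular to lowered genes is therefore drawn from their runs. Fewer genes were raised than lowered, so fewer runs would form by number alone, and the 2 counts of runs are not a like comparison.

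Many of the members were strongly expressed genes of wild-type buds. Their median wild-type level was 26.3 RPKM, and the range ran from 1.28 RPKM in Bra012930 to 3671 RPKM in Bra028691. Of the 61 members, 45 reached 10 RPKM in wild type, 18 reached 100 and 5 reached 1000. In msm, 14 members kept a mean of 1 RPKM or more and 32 lay under 0.1 RPKM. In all 61 members every msm library was below every wild-type library, which also held for 19% of all listed genes. Together the members took 0.0788%, 0.0769% and 0.0768% of the reads in msm libraries 1, 2 and 3, against 1.48%, 1.49% and 1.48% in wild-type libraries 1, 2 and 4. The means were 0.0775% ± 0.00113 in msm and 1.48% ± 0.00807 in wild type (SD, n = 3 each). The 5 members at 1000 RPKM or more in wild type gave 76.1% to 78.2% of the member reads in msm and 52.8% to 54.4% in wild type. They did not share this evenly. Bra028691 alone gave 46.2% to 47.9% in msm and 10.9% to 11.3% in wild type, while Bra028692 and Bra025355 had only 453 and 60 msm reads.

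**Figure D1:**
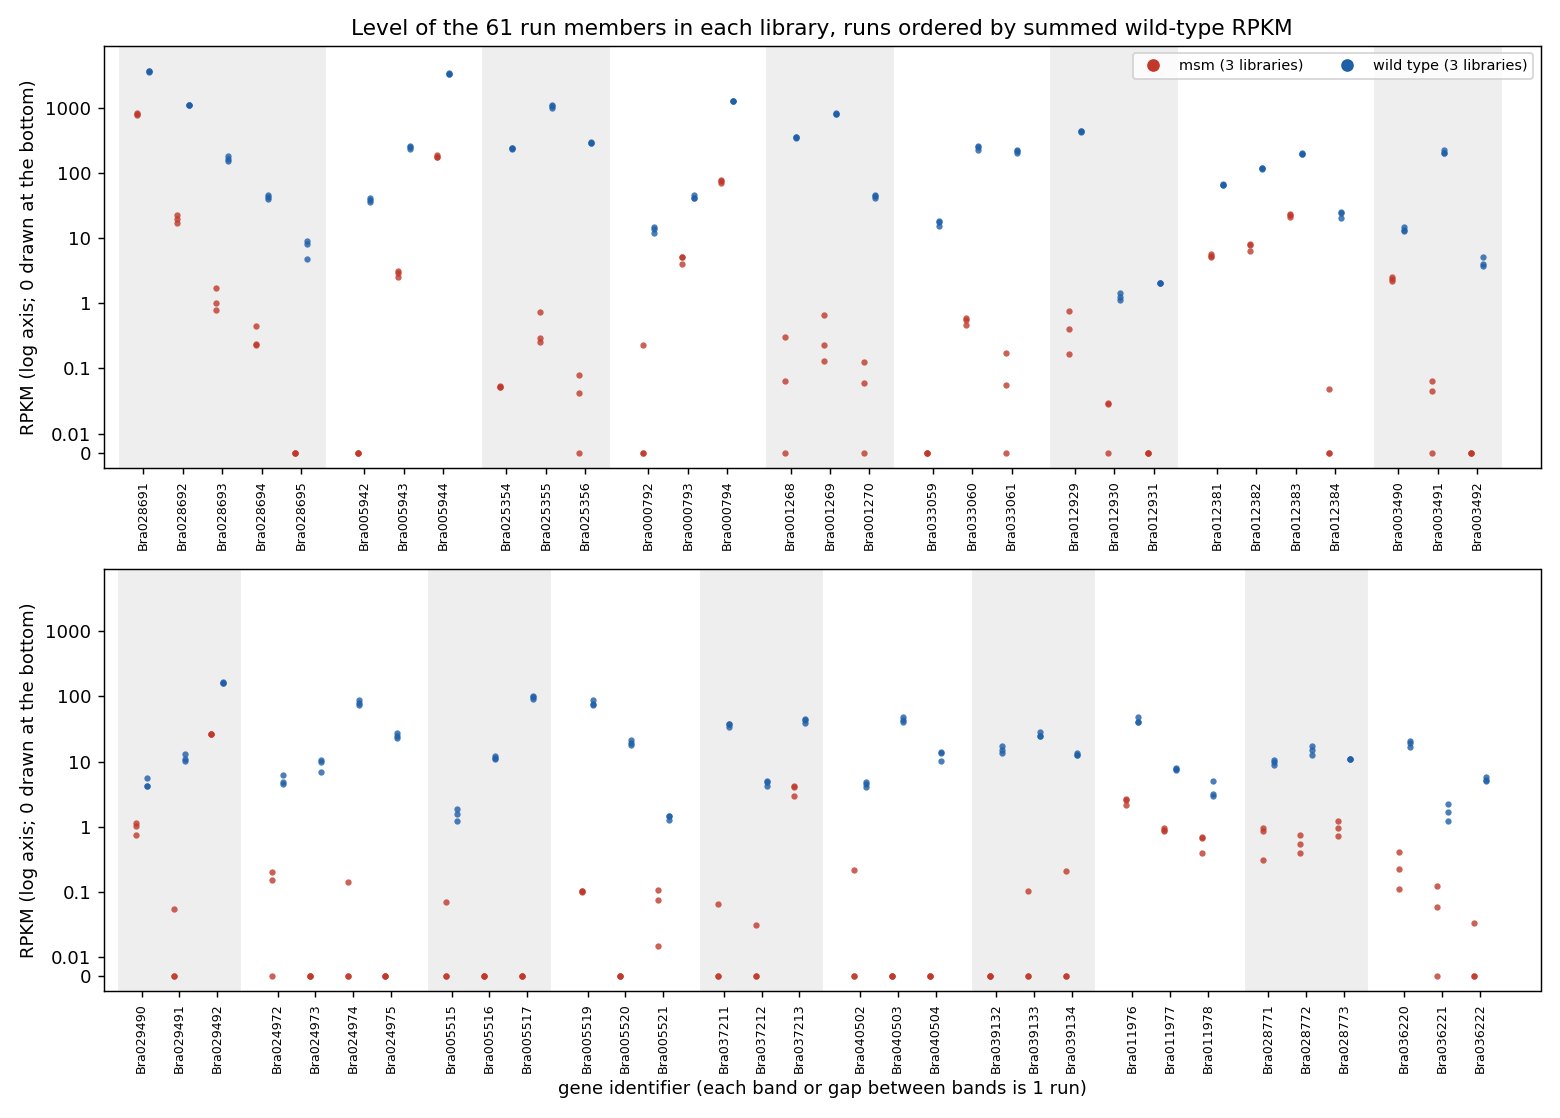
RPKM of each of the 61 members in 3 msm libraries (red) and 3 wild-type libraries (blue) on a log axis, with values of 0 drawn at the bottom; shaded and unshaded bands are runs, ordered by their summed wild-type RPKM. The groups do not overlap in any member, and the gap between them varies widely within a run.

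The longest run, Bra028691 to Bra028695, declined in level along its 5 numbers in both groups. Bra028691, a short gene of 450 coding bases, had 838, 789.5 and 809 RPKM in msm, against 3666, 3634 and 3714 RPKM in wild type. It was the member with the highest level in both groups, rank 3 of all listed genes by wild-type mean and still rank 41 by msm mean. The level averaged 812 ± 24.6 RPKM in msm and 3671 ± 40.5 RPKM in wild type (SD, n = 3 each). The msm mean was 4.52-fold below that of wild type, the smallest fold among the members. Bra028692 (297 bases) had 22.5, 20.1 and 17.1 RPKM in msm, against 1127, 1133 and 1127 RPKM in wild type, a 56.8-fold lower mean. Next came Bra028693, the longest member at 6117 bases, with 0.797, 1.72 and 1.01 RPKM in msm, against 166, 185 and 156 RPKM in wild type. Its msm libraries differed by a larger factor than those of Bra028691 and Bra028692, with library 2 the highest. Bra028694 (339 bases) had 0.232, 0.451 and 0.236 RPKM in msm, against 46.6, 43.6 and 39.8 RPKM in wild type. Bra028695, at 267 bases the shortest member, had no read in any msm library and 9.14, 8.21 and 4.8 RPKM in wild type. With 0 reads found, up to 3 per library remain possible, so it was at least 16.8-fold lower. Bounds of this kind, for genes without a read in msm, are set at 3 reads per library and cover counting error only. Wild-type levels spanned 497-fold within this run, the widest span of the 19.

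The second run by summed level was Bra005942 to Bra005944, in which the level increased along the numbers. Bra005942 (453 bases) had no read in msm and 36.2, 39 and 41.3 RPKM in wild type, and was at least 149.7-fold lower. Bra005943 (801 bases) had 2.9, 2.57 and 3.15 RPKM in msm, against 231, 262 and 252 RPKM in wild type, an 86.4-fold lower mean. Bra005944 (624 bases) had 189.5, 176 and 176 RPKM in msm, against 3363, 3336 and 3482 RPKM in wild type, and took rank 4 among all listed genes by wild-type mean. It averaged 180.5 ± 7.82 RPKM in msm and 3393 ± 77.5 RPKM in wild type (SD, n = 3 each), an 18.8-fold lower mean. All 3 msm libraries of Bra005944 were high by the standard of the other members: its msm mean of 180.5 RPKM was second only to that of Bra028691, whereas its neighbour Bra005942 was unread.

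Members of the run Bra025354 to Bra025356 were abundant in wild type and almost unread in msm. Bra025354 (1491 bases) had 0.0528, 0.0512 and 0.0537 RPKM in msm, against 235, 247 and 240.1 RPKM in wild type, with 2, 2 and 2 reads in the msm libraries. Bra025355 (1839 bases) had 0.257, 0.291 and 0.74 RPKM in msm, against 1129, 1058 and 1017 RPKM in wild type. It averaged 0.429 ± 0.27 RPKM in msm and 1068 ± 56.7 RPKM in wild type (SD, n = 3 each), 2489-fold lower, and 3902-fold lower without msm library 3, the highest of the msm libraries. Bra025356 (954 bases) had 0.0412, 0.0801 and 0 RPKM in msm, against 298, 287 and 295 RPKM in wild type. Those msm values were 3 reads in all, and the fold of 7247 has a 95% exact Poisson interval of 2479.9 to 35143 for the counting error of the msm reads, and is 14216 without msm library 2. All 3 genes thus lay above 100 RPKM in each wild-type library and under 1 RPKM in each msm library. The summed level of the run was 3068-fold lower in msm. Poisson intervals here and below take the msm reads of the 3 libraries together and cover counting error only, not the spread between libraries. Bounds for unread genes allow 3 reads in each library, so the 2 kinds of limit are on unlike scales.

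Both runs of 4 combined members of different depth of loss. In Bra012381 to Bra012384, the first 3 kept part of their level. Bra012381 had 5.43, 5.22 and 5.64 RPKM in msm, against 65.1, 66.1 and 69.2 RPKM in wild type. Bra012382 had 6.45, 8.01 and 8.09 RPKM in msm, against 117, 118 and 119.8 RPKM in wild type, and Bra012383, of 2958 bases, had 23.3, 21.3 and 22.8 RPKM in msm, against 200.3, 200.3 and 201 RPKM in wild type. Their means were 12.3-, 15.7- and 8.92-fold lower. The fourth, Bra012384, had 0, 0.0492 and 0 RPKM in msm, against 20.3, 24.2 and 25.3 RPKM in wild type, which is a single read in msm, and its ratio of 1419 has an interval of 255 to 56066. Without msm library 2 it is unread there and at least 152-fold lower. The other run of 4, Bra024972 to Bra024975, was nearly silent in msm throughout. Bra024972 (789 bases) had 0.15, 0 and 0.203 RPKM in msm, against 4.84, 4.5 and 6.24 RPKM in wild type. Bra024974 (561 bases) had 0, 0 and 0.143 RPKM in msm, against 75, 80.2 and 87.2 RPKM in wild type, and its only msm reads, 2 of them, were in library 3. The members between and after them were unread in every msm library. Bra024973 (582 bases) had 6.83, 10.4 and 9.76 RPKM in wild type and was at least 44.6-fold lower. Bra024975 (585 bases) had 23.4, 25 and 27 RPKM in wild type and was at least 125-fold lower.

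A pair of runs stood only 1 number apart, and they were singled out after their values were seen. Bra005515 to Bra005517 and Bra005519 to Bra005521 are separated by Bra005518, a gene hardly read in either group, with 0, 0.0781 and 0.245 RPKM in msm, against 0.0805, 0 and 0 RPKM in wild type. On the near side of it, Bra005517 (732 bases) had no read in msm and 92.4, 97 and 103 RPKM in wild type, at least 607-fold lower. On the far side, Bra005519 (777 bases) had 0.101, 0.0983 and 0.103 RPKM in msm, against 72.9, 77.6 and 86.8 RPKM in wild type, a 784-fold lower mean that rests on 6 reads in msm. Wild-type levels declined away from Bra005518 on both sides. Bra005516 had no read in msm and 11.1, 12.3 and 11.5 RPKM in wild type, at least 158-fold lower. Bra005520 had no read in msm and 19.3, 18.2 and 21.1 RPKM in wild type, at least 53.9-fold lower. The outer genes were the faint ones: Bra005515 had 0.0703, 0 and 0 RPKM in msm, against 1.86, 1.57 and 1.22 RPKM in wild type, and Bra005521 had 0.0755, 0.0147 and 0.108 RPKM in msm, against 1.44, 1.44 and 1.28 RPKM in wild type. Reads covered only 35.4%, 35.5% and 43.1% of Bra005516 in wild-type libraries 1, 2 and 4. That was the lowest wild-type coverage of any member: 58 of the 61 had a mean coverage of 90% or more.

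Of the other 12 runs, 6 held a member of at least 100 RPKM in wild type. In Bra000792 to Bra000794 it was Bra000794, with 76.5, 79.2 and 70.3 RPKM in msm, against 1274, 1266 and 1294 RPKM in wild type, the third highest msm level among the members. Its neighbours Bra000792 and Bra000793 averaged 0.0758 and 4.82 RPKM in msm, against 13.5 and 42.8 RPKM in wild type. In Bra001268 to Bra001270, Bra001268 had 0, 0.0643 and 0.303 RPKM in msm, against 345, 362 and 358 RPKM in wild type. Its 2899-fold lower mean rests on 11 msm reads (interval 1620.3 to 5808), most of them in library 3. Without that library the fold is 11043, which lies above the interval, since the interval leaves out the spread between libraries. Bra001269 had 0.231, 0.128 and 0.67 RPKM in msm, against 808, 849 and 814 RPKM in wild type. Bra001270 had 0, 0.0603 and 0.126 RPKM in msm, against 44.3, 41.5 and 45.7 RPKM in wild type. Its 705-fold lower mean rests on 6 msm reads (interval 324 to 1920.2) and is 1454 without library 3. All 3 genes were highest in library 3 among the msm libraries. In Bra003490 to Bra003492 the middle gene Bra003491 had 0, 0.0646 and 0.0451 RPKM in msm, against 225, 203 and 203 RPKM in wild type. Its long neighbour Bra003490 (3879 bases) was 5.83-fold lower at 2.35 RPKM in msm and 13.7 RPKM in wild type, and Bra003492 was unread in msm with a wild-type mean of 4.33 RPKM. Bra012929 had 0.405, 0.164 and 0.756 RPKM in msm, against 422, 439 and 451 RPKM in wild type, whereas Bra012930 and Bra012931 averaged 0.0191 and 0 RPKM in msm, against 1.28 and 2.08 RPKM in wild type. The abundant gene thus made up 99.2% of the wild-type level of that run.

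The run Bra033059 to Bra033061 held a pair of such members. Bra033060 had 0.457, 0.559 and 0.603 RPKM in msm, against 227, 263 and 249.8 RPKM in wild type, and Bra033061 had 0.0565, 0 and 0.172 RPKM in msm, against 201, 222 and 229 RPKM in wild type. Bra033059 had no read in msm and 15.3, 17.9 and 18.1 RPKM in wild type, at least 303-fold lower. In Bra029490 to Bra029492 a nearly lost gene stood between 2 that were partly kept. Bra029491 had 0, 0 and 0.0541 RPKM in msm, against 13.1, 11 and 10.1 RPKM in wild type. Bra029490 had 0.746, 1.01 and 1.15 RPKM in msm, against 4.22, 4.18 and 5.51 RPKM in wild type, only 4.79-fold lower, and Bra029492 had 26.4, 26.4 and 26.2 RPKM in msm, against 159, 159.8 and 165 RPKM in wild type, 6.13-fold lower. Bra037211 to Bra037213 showed a like mix: Bra037211 and Bra037212 averaged 0.0213 and 0.0104 RPKM in msm, against 36.4 and 4.7 RPKM in wild type. Bra037213, of 5733 bases, kept 2.998, 4.16 and 4.03 RPKM in msm, against 44.4, 43.4 and 39.1 RPKM in wild type.

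The remaining 5 runs had the lowest summed wild-type levels of the 19, at 26.1 to 60.9 RPKM. No member of them averaged more than 43.8 RPKM in wild type. Bra011976 to Bra011978 and Bra028771 to Bra028773 kept a low level of every member in every msm library. Bra011976, Bra011977 and Bra011978 averaged 2.44, 0.9001 and 0.584 RPKM in msm, against 43, 7.66 and 3.74 RPKM in wild type. Bra028771, Bra028772 and Bra028773 averaged 0.705, 0.558 and 0.967 RPKM in msm, against 9.75, 14.9 and 10.9 RPKM in wild type. This last run was the most even of the 19, with wild-type means within 1.52-fold of each other. Members of Bra036220 to Bra036222 averaged 0.246, 0.0598 and 0.0112 RPKM in msm, against 19.1, 1.71 and 5.32 RPKM in wild type. In Bra039132 to Bra039134, the first was unread in msm, and Bra039133 and Bra039134 had 1 and 2 msm reads, all in library 3. Their wild-type means were 15.3, 26.3 and 13 RPKM. Bra040503 and Bra040504 were unread in msm at wild-type means of 43.8 and 12.6 RPKM, and Bra040502 had 3 msm reads, again in library 3 alone, at 4.51 RPKM in wild type.

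No run was unread in msm in all its members, and loss without a single read was scattered over the runs. In all, 13 members had no read in any msm library, and 13 others had 1 to 3 reads in the 3 msm libraries together. The unread members lay in 10 of the 19 runs, at most 2 in a run. Reads were found for 34 members in msm library 1, 37 in library 2 and 43 in library 3, and for 29 members in all 3. Of the members read in a single msm library, 8 were read in library 3, 2 in library 2 and 1 in library 1. Library 3 was not the deepest of the msm libraries, and the part of this uneven spread in the residual levels was not tested.

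Within a run, members often differed widely in level. The highest wild-type mean was at least 10 times the lowest in 13 of the 19 runs and at least 100 times in 2, with a median of 15.6 times. Between neighbouring members the wild-type means differed by a median of 4.99-fold over 42 pairs, against 3.44-fold over the 18324 neighbouring pairs in which both genes had 1 RPKM or more in wild type, a difference that was not tested. The most abundant gene of a run stood at an end in 10 runs and inside in 9. Depth of loss was as mixed. In Bra012381 to Bra012384 the fold ran from 8.92 to 1419, and in Bra003490 to Bra003492 from 5.83 to 5747, although a fold that rests on few msm reads is imprecise. The highest of these, that of Bra003491, rests on 5 msm reads (interval 2463 to 17700.5) and is 9319 without msm library 2. Of the 48 members with a read in msm, 21 had a fold that moved by over 1.5 times when 1 library was left out. That library was msm 3 for 15 of them, msm 2 for 4 and msm 1 for 2, and none of the 21 had more than 60 msm reads.

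Coding length, which the rule does not use, was alike in some runs. The runs closest in length were Bra028771, Bra028772 and Bra028773, with 504, 492 and 498 bases, followed by Bra001268, Bra001269 and Bra001270, with 1188, 1194 and 1266 bases. In Bra024973, Bra024974 and Bra024975 the lengths were 582, 561 and 585 bases, while Bra024972 in the same run had 789. Over all members, 8 of 42 neighbouring pairs (19%) had lengths within 5% of each other and none had the same length. The share was 9.92% of the 131 marked pairs outside runs and 6.16% of the 31144 neighbouring pairs of listed genes. The median ratio of the longer to the shorter gene was 1.47 for member pairs, 1.64 for marked pairs outside runs and 1.81 for all listed pairs. Within 10%, the shares were 23.8%, 20.6% and 10.7% of the same sets of pairs. Within 20% the order of the first 2 sets turned, with 26.2% of member pairs, 30.5% of marked pairs outside runs and 18.4% of all listed pairs, and within 35% the shares were 40.5%, 42.7% and 28.2%. The tolerance of 5% was chosen after the lengths were seen, the pairs of a run share genes, and the difference was not tested. Like lengths do not show that genes are copies, and sequences were not compared. If any of these like-sized neighbours are near-identical copies, their reads could have been lost or misplaced in counting. Their levels are uncertain to that extent, which was not checked.

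**Figure D2:**
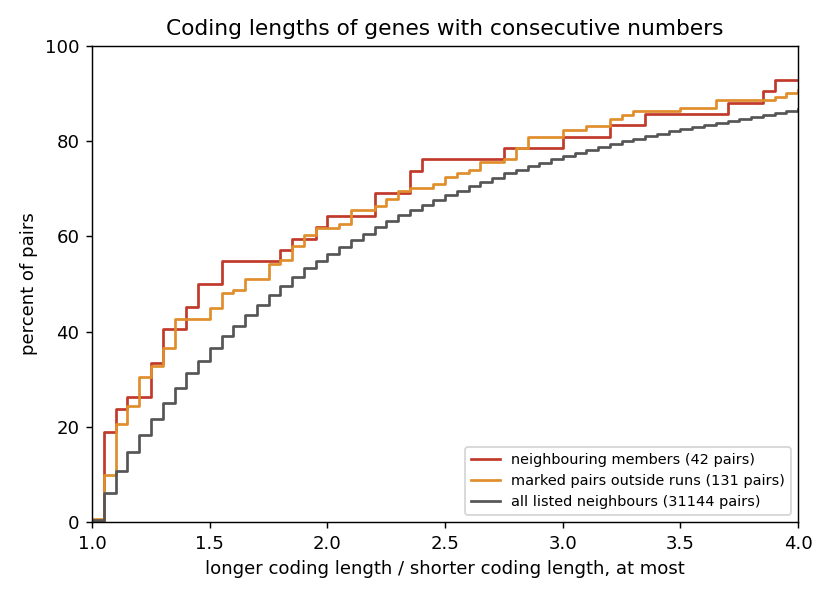
Cumulative percentage of gene pairs with consecutive numbers (vertical axis) whose longer coding length is at most the given multiple of the shorter (horizontal axis), for 42 neighbouring members, 131 marked pairs outside runs and 31144 listed pairs. At 1.05, the curve of the members stands at 19%, that of marked pairs outside runs at 9.92% and that of all listed pairs at 6.16%. At 1.2 and at 1.35 the curve of the members lies below that of marked pairs outside runs.

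Of the genes that border a run, most were read in both groups. The gene right before or after a run is unmarked by the rule, so only its kind is informative. Of 37 such numbers (Bra005518 borders 2 runs), 25 had an msm mean above 0.25 of wild type, 10 had a wild-type mean under 1 RPKM and 2 had no read in any library. Some bordering genes were abundant in both groups. Bra005522 had 142, 143 and 142 RPKM in msm, against 125, 115 and 120.0 RPKM in wild type, a ratio of 1.19. Bra005945 had 243, 193 and 207 RPKM in msm, against 206, 240.1 and 241 RPKM in wild type, a ratio of 0.935. Bra039131 had 61.5, 57.7 and 62.5 RPKM in msm, against 53.1, 46.9 and 49.9 RPKM in wild type, a ratio of 1.21. In none of these 3 genes, picked after their values were seen, did msm come near 0.25 of wild type. By edgeR's quasi-likelihood test over the whole table (Benjamini-Hochberg adjusted p below 0.05 and at least 2-fold), 3 of the 27 bordering genes tested were lower in msm (Bra029489, Bra033058 and Bra036219) and 2 were higher (Bra005941 and Bra036223). The same calls went to 12.5% (lower) and 4.64% (higher) of the whole table. That 12.5% includes marked genes, which a bordering gene cannot be, so the shares of lower calls are not a like comparison.

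A few members and bordering genes lay close to the thresholds on either side. Just inside 0.25 of the wild-type mean lay Bra028691 at a ratio of 0.221 and Bra029490 at 0.209. Just outside lay Bra036219, with 33, 30.5 and 32.5 RPKM in msm, against 109, 111 and 116 RPKM in wild type and a ratio of 0.285, and Bra033058, with 0.833, 0.889 and 1.02 RPKM in msm, against 3.01, 3.42 and 2.92 RPKM in wild type and a ratio of 0.293. Both border a run that would have been longer by 1 gene with a slightly wider rule. Nearest above the minimum of 1 RPKM were Bra012930 at 1.28 RPKM and Bra005521 at 1.38 RPKM in wild type. The bordering genes nearest below it were Bra024976 with 0.544 RPKM in msm and 0.513 RPKM in wild type, and Bra005941 with 1.27 RPKM in msm and 0.431 RPKM in wild type.

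Further out, the numbers 2 to 5 from the end of a run are, with 2 exceptions, not fixed by the rule, and some held other lost genes. Of 128 listed genes at these distances that are not members, 11 (8.59%) were marked, against 5.64% of all listed genes. In edgeR 18 of the 105 tested (17.1%) were called lower and 3 (2.86%) higher, against 12.5% and 4.64% of all 29104 genes tested. The 128 include Bra005514 and Bra005522, which border the other run of the pair 1 number apart and are unmarked by the rule. Without those 2 genes, 11 of 126 (8.73%) were marked, and 18 of 103 tested (17.5%) were called lower and 3 (2.91%) higher. These shares are descriptions of a small set, and the difference was not tested. The 11 marked genes stood near 9 of the runs. Bra025352, separated from the run of Bra025354 by 1 number, had 0.0553, 0.242 and 0.422 RPKM in msm, against 703, 735 and 725 RPKM in wild type. The gene between them, Bra025353, had 20.3, 17.6 and 19.3 RPKM in msm, against 13.6, 15.6 and 15.1 RPKM in wild type, so a gene that was not lower in msm stood among 4 that were nearly unread there. Bra005946, past the end of the run of Bra005944, had 76.7, 60.2 and 69.7 RPKM in msm, against 999.7, 1016 and 1078 RPKM in wild type. After the longest run, Bra028698 had 0.0724, 0 and 0 RPKM in msm, against 33.7, 32.5 and 36.6 RPKM in wild type, and Bra028699 had 0, 0 and 0.0366 RPKM in msm, against 214, 236 and 234 RPKM in wild type. Bra040506, beyond an unread number after Bra040504, had 0, 0.101 and 0.105 RPKM in msm, against 34.2, 41 and 40.2 RPKM in wild type.

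**Figure D3:**
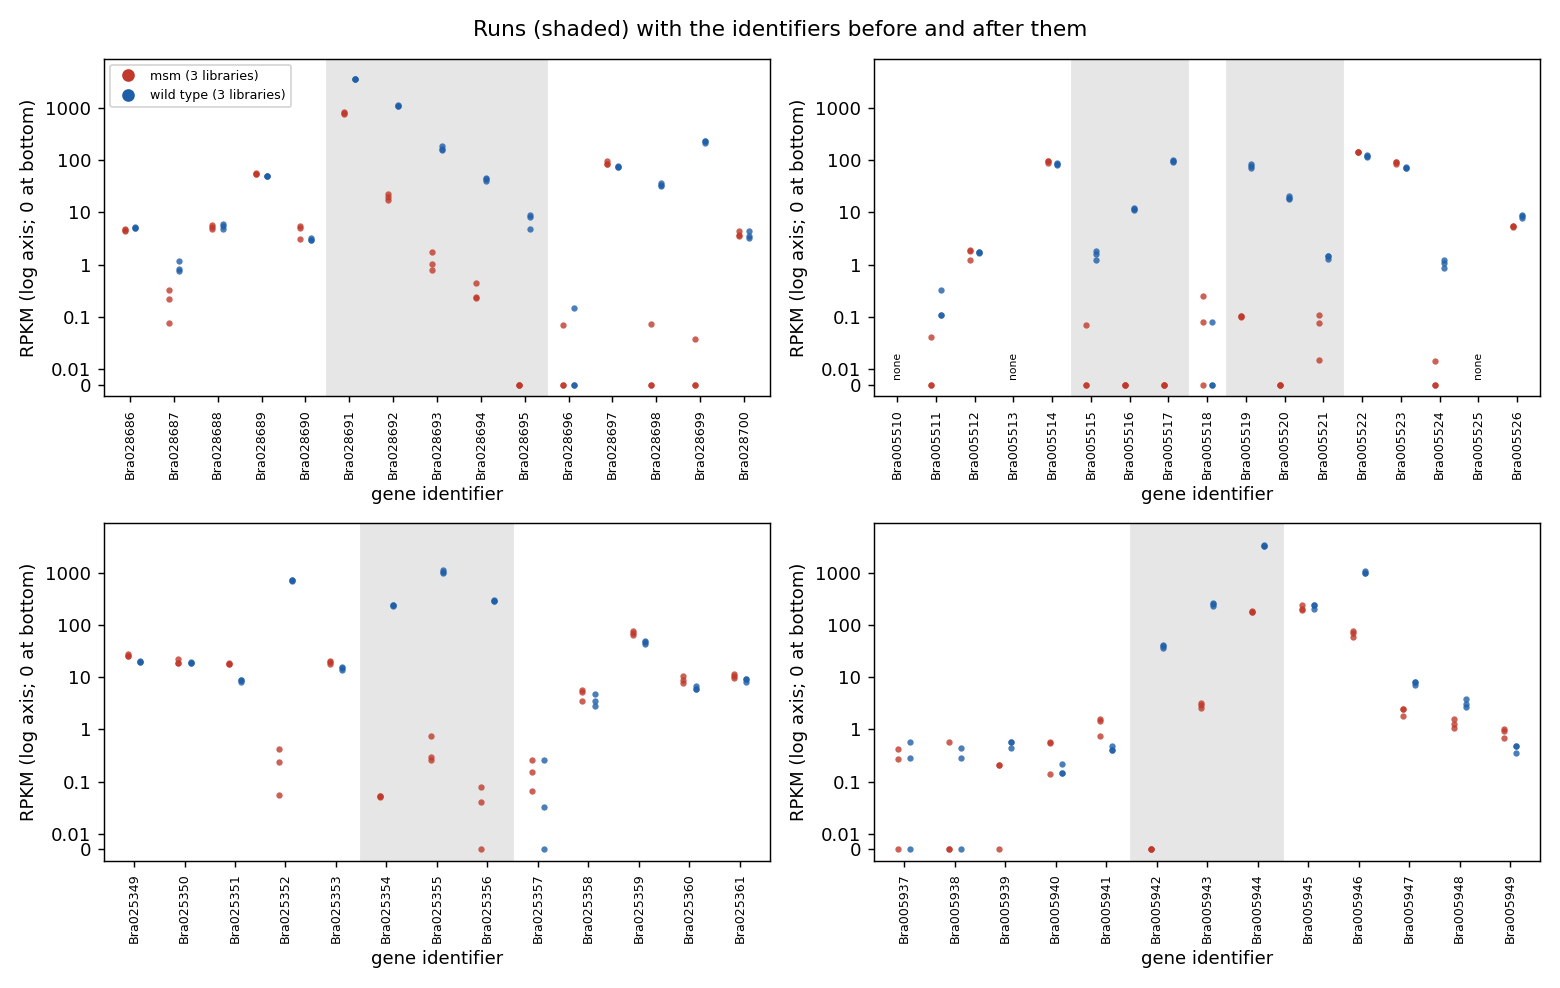
RPKM in 3 msm libraries (red) and 3 wild-type libraries (blue) on a log axis, with 0 at the bottom, for 4 stretches of consecutive numbers; members are shaded, and "none" marks a number without a read. Unshaded neighbours such as Bra005522 and Bra025353 lie at like levels in both groups, and Bra025352, Bra028698 and Bra028699 are lost genes outside the shading.

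**Figure D4:**
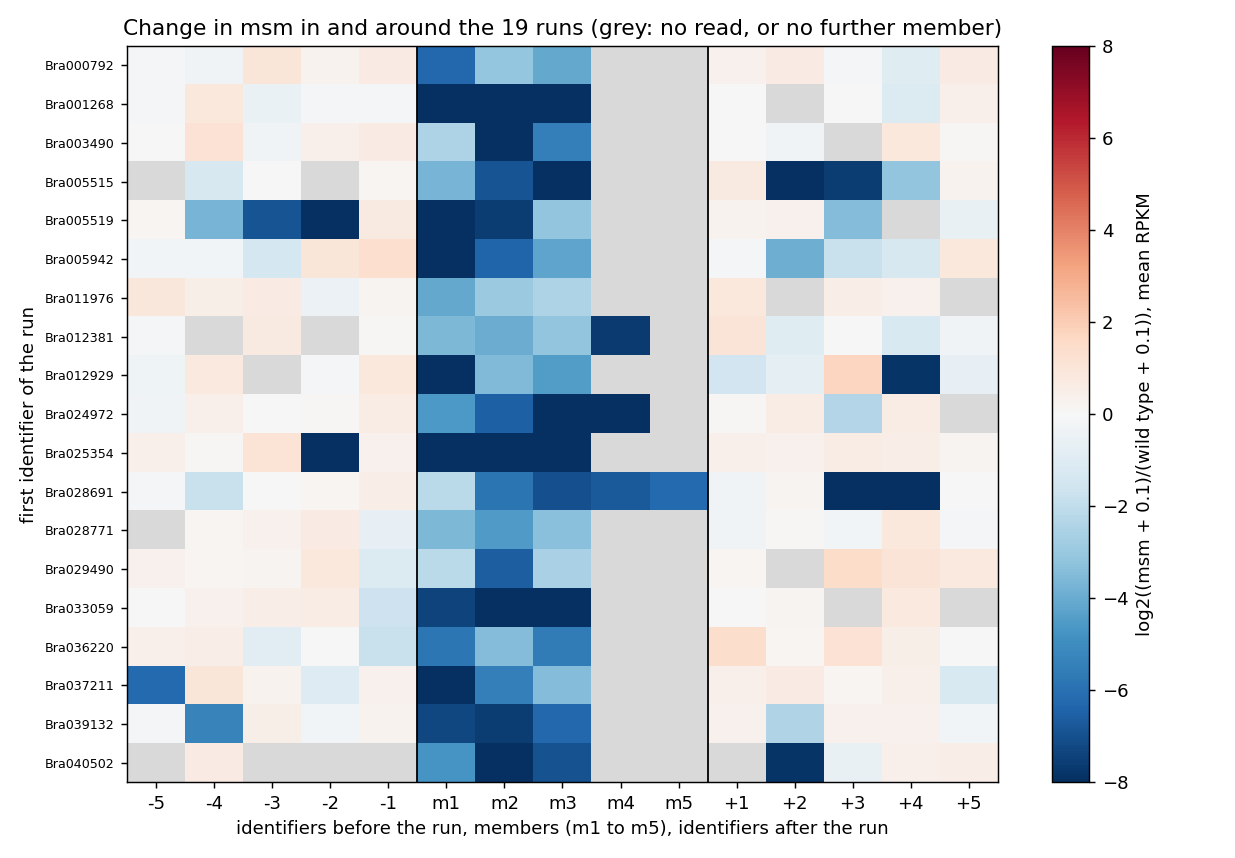
Difference between msm and wild-type means, as log2 of (RPKM + 0.1) ratios, for the members of each of the 19 runs (columns m1 to m5) and for the 5 numbers before and after it; blue is lower in msm and red higher, and colours end at 8 in either direction. The rule fixes the first number on either side as unmarked, though some there, such as Bra036219 and Bra033058, are still lower in msm, and 11 marked genes that are no members stand further out.

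The 1937 marked genes outside runs are the genes most like the members. The median wild-type level was 26.3 RPKM for members and 7.9 RPKM for marked genes outside runs. At least 100 RPKM was reached by 29.5% of the members and 10.3% of the others. With unread genes at their bound, the median fold was 66.8 for members and 24.1 for the others, and 28 members (45.9%) and 529 of the others (27.3%) were at least 100-fold lower. Unread in msm were 21.3% of the members and 17.1% of the others. Median coding length was 789 bases for members, 1026 for the others and 1104 for all genes at 1 RPKM or more in wild type. Since level and fold both entered the rule and a lost gene with a higher level can show a larger bounded fold, these are descriptions, and no difference was tested.

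**Figure D5:**
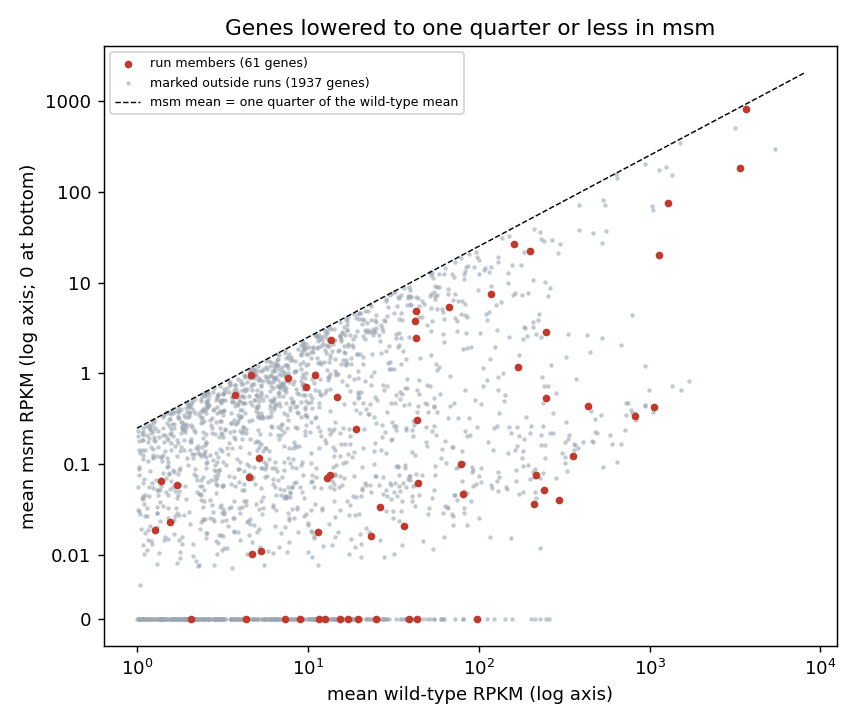
Mean msm RPKM against mean wild-type RPKM on log axes, with 0 at the bottom, for the 61 members (red) and 1937 marked genes outside runs (grey); the dashed line is an msm mean of 0.25 of the wild-type mean. Members spread over most of the range of the other marked genes, from genes near the line to genes without a read in msm.

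Wild-type libraries gave like values for most members. The coefficient of variation over the 3 wild-type libraries had a median of 7.42%, from 0.212% in Bra012383 to 31% in Bra028695, and 5 members passed 20%. It was 8.48% for marked genes outside runs and 6.77% for all genes at 1 RPKM or more. Library 4 gave the highest wild-type value for 30 of the 61 members (49.2%), library 2 for 16 and library 1 for 15. The same library was highest for 45.4% of the marked genes outside runs and for 35.6% of all genes at 1 RPKM or more, and the part of this library in the levels was not tested.

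All 61 members were tested and called lower in edgeR, a call that 12.5% of all tested genes received. The rule used the same contrast, so nothing is read from this count. RPKM is scaled to total reads, and with that scaling the median log2 fold change of all tested genes was 0.22, against 0.005 with TMM scaling. The losses given here as RPKM folds are therefore smaller than those relative to the median gene by that shift, and every member was called lower with either scaling.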

How the data were processed

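RNA-seq libraries of flower buds were grouped by their titles, 3 of msm and 3 of wild type. Per the file headers, each deposited table holds the count of uniquely assigned reads of every gene, its length, the covered share of it and an RPKM value. The deposited counts are not normalized, and the authors' RPKM followed from count, length and header total. All lengths divide by 3 and were read as coding lengths. DESeq stands in the submitters' processing notes with no role given. Aligner, counting tool, build, annotation and strand use: not given in the sources used here. A gene without a row was given 0. Members were found on the deposited RPKM, and members and settings were chosen with earlier results of these data known.

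Named with library values were the 3 longest runs, the 3 with the highest summed wild-type level, the 3 members highest in msm and the genes nearest the thresholds. That rule also asked for runs unread in msm in all members and for neighbouring members of equal length, and there were none. Other genes with library values were chosen after their values were seen.

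The whole table was fitted with edgeR 4.0.16 (R 4.3.3; quasi-likelihood test, TMM scaling, default expression filter, robust fitting). Alternatives used DESeq2 1.42.0 and limma 3.58.1. On simulated data for msm against wild type, over 28772 genes, edgeR found all 100 genes set to change 3-fold, all 100 set to change 8-fold, and 0 false calls. On the same data limma found 89 and 99 of them. As many genes were raised as lowered there, all above a minimum mean count. The simulation therefore does not cover the uneven changes or the few msm reads of these data.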

Additional observations from a re-analysis of the deposited data

How the results depend on the processing

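The 61 members in 19 runs stayed within 1.5 times of these counts at the following settings. At most one eighth of the wild-type mean in msm gave 51 genes in 16 runs, and a minimum of 0.5 RPKM gave 76 in 24. TMM-scaled RPKM gave 77 in 24, with all 61 members among them. Skipping identifiers without a read gave 69 in 21, and asking every library to pass the thresholds gave 58 in 18. With each library left out in turn there were 61 to 64 members in 19 to 20 runs, and all 61 were among them each time. The counts followed the thresholds by construction: allowing msm up to 0.5 of the wild-type mean gave 128 genes in 38 runs, a minimum of 5 RPKM gave 34 in 10, runs of 2 or more gave 323 in 150, and runs of 4 or more gave 13 in 3. No raised genes formed a run of 3 at a minimum of 5 RPKM, with TMM-scaled RPKM or with a library left out. Members called lower were 61 in all fits, which include DESeq2, limma with pseudocounts of 1 and 0.1 RPKM, other scalings and no expression filter. Genes 2 to 5 numbers outside a run that were called lower numbered 14 to 20 over the same fits, against 18, and 17 to 18 with a library left out. Leaving out the 2 such genes that border another run, an alternative chosen after seeing the data, also gave 18. The folds of members with each library left out were likewise added after seeing the data. The groups share only the replicate numbers 1 and 2, at correlations of -0.0473 and 0.0368 between the deviations of same-numbered libraries, so the numbers were not taken to pair them. With the replicate number as a block, 61 members and 17 of the genes outside runs were called lower. Depth limits the unread members: 0 reads allow up to 3 in a library.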
